A study of Mus musculus with 70 samples.

Results

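The dorsal hippocampus of mice that had spent 14 days without a running wheel after voluntary exercise was compared with that of mice that had spent 7 days without one. Both groups had first had a wheel for 14 days, and the comparison set a second week of rest against the first alone. The 14-14-0 group (14 days of exercise, 14 days of sedentary delay, 0 days of reactivating exercise) and the 14-7-0 group (14, 7 and 0 days) held 10 samples each, which is 20 of the 70 samples of the series. The samples were taken by their exercise labels, with earlier results of these data known. All 20 came from adult male C57BL/6J mice, 12 weeks old by the study's methods and housed individually, with no transgene and no drug. In both groups the mice had a 3-min acquisition in the object location memory (OLM) task, which is subthreshold for long-term memory, and tissue was taken 1 h later. Samples were collected in 2 harvest cohorts on separate days, and each cohort supplied 5 samples of each group. The 5 other groups were home cage mice without OLM and, all with OLM, sedentary mice (0-0-0) and the exercise groups 14-0-0, 14-7-2 and 0-0-2. The study states as a caveat that running distance in the initial exercise period varied across its sequenced groups. The distance that each mouse ran was not analysed here. Whether unequal running had a part in the differences below was therefore not tested.

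Voluntary running raises hippocampal neurogenesis, neurotrophic signalling and plasticity in rodents, and these changes fade once the wheel is taken away. One hour after a learning event, immediate early genes such as Fos and Arc are transcribed in activated neurons, and later activity genes such as Bdnf follow. A dissected hippocampus also carries tissue that lies against it. The choroid plexus of the lateral ventricle, an epithelium that makes cerebrospinal fluid, runs along the fimbria and can stay on the tissue block.

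Expression was measured as FPKM (fragments mapped to a gene, scaled by transcript length and library size), and all differences are given as log2(FPKM + 0.1) in 14-14-0 minus that in 14-7-0. Of 24346 genes listed, 12994 had a mean of at least 1 FPKM over the 70 samples and were tested. A gene is called higher or lower where the limma test gave an unadjusted p under 0.05, the criterion used by the study. The p-values of single genes printed here are unadjusted limma values unless stated otherwise. As a check on the tissue, Neurod6, a transcription factor of pyramidal neurons, measured at least 113 FPKM in each of the 20 samples, and Prox1, which marks dentate granule cells, at least 9.70 FPKM.

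A few samples stood apart. In 14-7-0 replicate 4, 10279 genes held 0 FPKM, where the other 19 samples held 6403 to 7080 such genes, and its median correlation with its own group was 0.901, against 0.939 to 0.970. Its depth relative to sedentary replicate 0, estimated from the FPKM of low genes, was 0.0257, against 0.454 to 1.007 in the other 19. In 14-14-0 replicate 3 the marker genes of several regions were shifted. A score was taken for each list of genes as the mean of log2(FPKM + 0.1) after the mean of each gene over the 70 samples was subtracted. For dentate granule cells this score was -0.95 in 14-14-0 replicate 3 and -0.27 to 0.35 in the other 9 samples of the group. For CA1 pyramidal cells the score was -0.76 against -0.14 to 0.24, for CA2 and CA3 pyramidal cells 0.50 against -0.20 to 0.18, and for thalamus 0.70 against -0.21 to 0.34. In 14-7-0, replicates 0 and 3, both of cohort 1, had CA2 and CA3 scores of -0.97 and -1.18, where the other 8 samples had -0.16 to 0.24. Their CA1 scores of 0.58 and 0.74 were the highest of the group, the others being -0.35 to 0.34. The results below are therefore also given without these samples where their call or size depended on them. Sedentary replicate 6 held 2.45 FPKM of Neurod6. It is not in the fits of the rest groups, but it enters the comparisons with sedentary mice, the minimum of 1 FPKM, the centring of the scores and the correlations over the 50 other samples.

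Between the rest groups, 436 genes were called higher in 14-14-0 (3.36% of those tested) and 401 were called lower (3.09%). The 837 calls made up 6.44% of the genes tested, where an unadjusted p under 0.05 would call 649.7 genes by chance. No gene had an adjusted p under 0.05 by limma with Benjamini-Hochberg adjustment, and the smallest adjusted p was 0.746. Genes called higher had a median log2 difference of 0.44 in size and 84 of them exceeded 1, whereas genes called lower had a median of 0.17 in size and 3 of them exceeded 1. Over all genes tested the median difference was -0.01, with 5933 genes above 0 and 7061 below. These values are the background of the list counts below.

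The counts rested on single samples. Without 14-7-0 replicate 4, 479 genes were higher and 479 lower (7.37% together), and 348 of the 436 and 293 of the 401 were among them. Without 14-14-0 replicate 3, 271 were higher and 323 lower (4.57%), with 265 and 250 shared. With both left out, 264 were higher and 395 lower (5.07%), with 195 and 230 shared. Without 14-7-0 replicates 0 and 3, 328 were higher and 240 lower (4.37%), with 279 and 177 shared. The higher count also fell to 278 without 14-14-0 replicate 1, and the lower count to 267 without 14-7-0 replicate 3. The smallest adjusted p by limma was 0.671 without 14-7-0 replicate 4, 1 without 14-14-0 replicate 3, 0.895 without both and 0.957 without 14-7-0 replicates 0 and 3.

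Choroid plexus transcripts were higher in 14-14-0 than in 14-7-0. Of 30 markers of choroid plexus epithelium, 28 were tested and 27 were called higher in 14-14-0, with a median log2 difference of 1.95 beside -0.01 over all genes. In bulk tissue, more cells of a type and more RNA per cell cannot be told apart. The score of this list was 2.40 to 4.43 in 5 of the 14-14-0 samples (replicates 0, 1, 3, 5 and 7) and -1.49 to -0.28 in the other 5. In 14-7-0 it ran from -1.97 to 1.37, with a median of -1.07. The 5 high samples thus lay above every 14-7-0 sample, and the other 5 lay within the 14-7-0 range. Samples of this kind were also found in other groups: 5 of 10 14-0-0 samples and 3 of 10 home cage samples lay above every 14-7-0 sample, as did 1 in 14-7-2, 1 in 0-0-2 and 0 in sedentary mice.

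**Figure D1:**
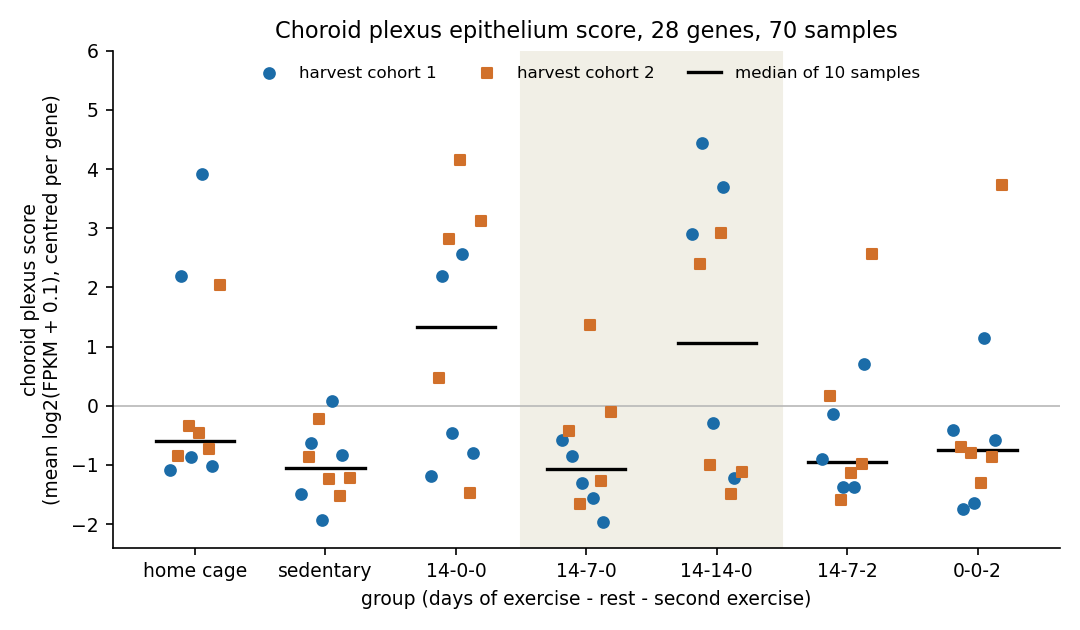
Score of 28 choroid plexus epithelium genes (mean log2(FPKM + 0.1), centred per gene) in the 70 samples by group; circles are harvest cohort 1, squares harvest cohort 2 and bars the group medians. The 14-14-0 samples form a high set from 2.40 to 4.43 and a low set from -1.49 to -0.28, and the 14-7-0 samples lie between -1.97 and 1.37.

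Ttr, which encodes the thyroxine carrier transthyretin and is the most abundant choroid plexus transcript, ranged from 32.2 to 21240 FPKM in 14-14-0 with a median of 2040. In 14-7-0 it ranged from 19.1 to 2085 FPKM with a median of 72.4. The 5 high 14-14-0 samples all exceeded the highest 14-7-0 sample, and the rest overlapped it (log2 difference 2.90, SE 1.29, p = 0.0356). Its p was 0.0508 without 14-7-0 replicate 4 and 0.0705 without 14-14-0 replicate 3. Folr1, the folate receptor that carries folate across this epithelium, had a median of 11.6 FPKM in 14-14-0 (0.524 to 104) and 0.741 FPKM in 14-7-0 (0 to 7.27), a difference of 2.86 (SE 1.03, p = 0.0114). Kl, which encodes klotho, differed by 1.33 (p = 0.0199), the potassium channel gene Kcnj13 by 2.88 (p = 0.0233) and Enpp2, the lysophospholipase autotaxin, by 1.65 (p = 0.0271). The same 5 samples of 14-14-0 exceeded every 14-7-0 sample for each of these 5 genes.

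The choroid plexus list had a larger median difference in cohort 1 than in cohort 2. Whether the difference of the list differed between collection days was not tested. The high 14-14-0 samples were replicates 0, 1 and 3 in cohort 1 and replicates 5 and 7 in cohort 2. In cohort 1 the list had a median log2 difference of 3.32 with 27 genes called. In cohort 2 it had a median of 0.72 with 0 called at an unadjusted limma p under 0.05. Of all 12994 genes tested, cohort 1 alone called 577 higher and 527 lower, and cohort 2 alone 57 higher and 109 lower. Those numbers are the background of each count by cohort below, and in cohort 2 few genes of any kind were called. Without 14-14-0 replicate 1, 13 of the 28 genes were called, without replicate 3 also 13 and without replicate 7 15. With 14-14-0 replicate 3 and 14-7-0 replicate 4 both left out, 8 were called and the median was 1.46, and without 14-7-0 replicates 0 and 3, 15 were called and the median was 1.95.

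Most of the genes called higher followed the choroid plexus score in samples outside the comparison. Of the 409 called genes that are not on the marker list, 235 (57.5%) had a correlation above 0.5 with the score across the 50 samples of the other groups, beside 5.44% of all tested genes off the list. Of the 401 genes called lower, 0 had such a correlation, and the median correlation was 0.589 for genes called higher and -0.13 for genes called lower. These samples share the libraries from which both values come, so the correlation is a description. With each sample's choroid plexus score added to the fit as a covariate, 47 genes were higher and 95 lower (1.09% of those tested). That is fewer than the 649.7 that chance would give. Of the 436 and 401 calls, 24 and 66 kept their call in this fit. The part of choroid plexus content in the calls of single genes was not tested.

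**Figure D2:**
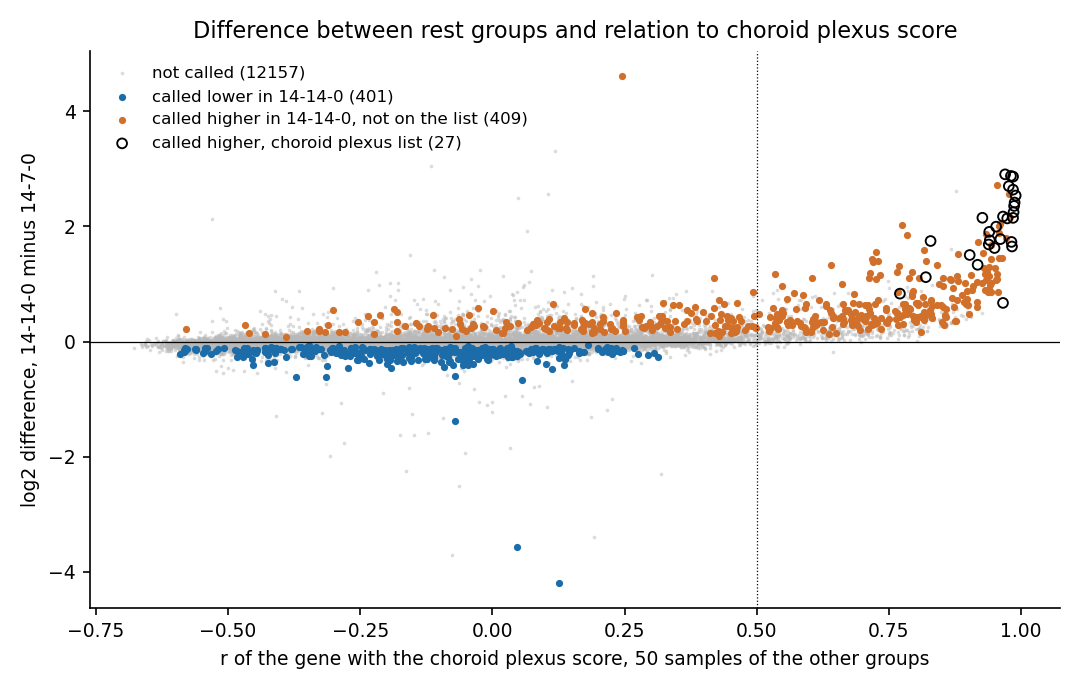
Each point is a tested gene, with its correlation to the choroid plexus score across the 50 samples of the other groups on the x axis and its log2 difference (14-14-0 minus 14-7-0) on the y axis; orange marks genes called higher, blue genes called lower, open circles the choroid plexus list and the dotted line a correlation of 0.5. To the right of the dotted line lie 235 of the 409 other genes called higher and 0 of the 401 genes called lower.

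Genes of the tissues next to the ventricle followed. Of 16 tested meninges and fibroblast genes, 6 were called higher, beside 3.36% over all genes, with a list median of 0.48. With the choroid plexus score in the fit 1 was called and the median was 0.04, without 14-14-0 replicate 3 and 14-7-0 replicate 4 3 were called, and in cohort 2 0 were at an unadjusted limma p under 0.05. Igfbp2, which binds insulin-like growth factors, had a median of 25.3 FPKM in 14-14-0 (10.4 to 136) and 9.92 FPKM in 14-7-0 (5.68 to 26). All 10 of the 14-14-0 samples were above the 14-7-0 median and 5 were above the whole group, the difference being 1.6 (SE 0.472, p = 0.00293). With the choroid plexus score in the fit it was 0.41 (p = 0.0122). Igf2, a growth factor secreted by choroid plexus and meninges, differed by 1.28 (p = 0.0185), and by 0.03 with the covariate (p = 0.849). Of 12 tested genes of ependyma and motile cilia, 4 were called higher, beside 3.36% over all genes, with a list median of 0.60. At an unadjusted limma p under 0.05, 0 were called with the choroid plexus score in the fit, where the median was 0.03, and 0 in cohort 2, where it was 0.13. Foxj1, the transcription factor of motile ciliated cells, had a median of 4.78 FPKM in 14-14-0 (2.96 to 12.1) and 3.19 FPKM in 14-7-0 (1.45 to 6.48), and 3 samples exceeded every 14-7-0 sample (difference 0.64, p = 0.0270). The number of ependymal genes called was 1 without 14-14-0 replicate 1 or 3 or 14-7-0 replicate 3, 2 without 14-14-0 replicate 5 or 14-7-0 replicate 2 or 4, and 7 without 14-7-0 replicate 9. It was 1 without 14-7-0 replicates 0 and 3 together, when the p of Foxj1 was 0.103. The ependymal score was 1.78 in 14-14-0 replicate 3 against -0.39 to 0.96 in the other 9 samples.

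A smaller set of genes kept its call when choroid plexus content was a covariate, in a fit with fewer calls than chance would give. By the rule that a gene be called in all 20 samples, without 14-7-0 replicate 4, with the choroid plexus score and with harvest cohort as covariates, and differ in the same direction in both cohorts, 23 genes were higher and 58 lower in 14-14-0. For genes of this set, a call with the covariate and the same direction in both cohorts follow from the rule and add no support. Of the 436 and 401 calls in all, 423 and 375 had the same direction in both cohorts. Hspb1 (chr5:135887919-135889563 in GRCm38), a small heat shock protein that binds unfolded proteins, had the smallest p of the genes called higher. It measured 6.66 to 11.2 FPKM in 14-14-0 with a median of 7.98, and 2.88 to 10.1 FPKM in 14-7-0 with a median of 5.34. Every 14-14-0 sample was above the 14-7-0 median, although a single 14-7-0 sample reached the upper part of the 14-14-0 range (difference 0.65, SE 0.16, p = 0.000613). The difference was 0.96 in cohort 1 and 0.33 in cohort 2, 0.45 with the covariate (p = 0.0133) and 0.54 without 14-14-0 replicate 3 and 14-7-0 replicate 4 (p = 0.00301). Of the 11 heat shock and cold-inducible genes tested, Hspb1 was the only gene called, beside 6.44% of all genes called in either direction.

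Endog (chr2:30171408-30174069), a mitochondrial nuclease, had a median of 4.26 FPKM in 14-14-0 (3.46 to 5.53) and 3.17 FPKM in 14-7-0 (2.64 to 4.31). All 10 of the 14-14-0 samples exceeded the 14-7-0 median and 4 exceeded the whole group (difference 0.35, SE 0.0957, p = 0.00158). Its difference was 0.42 with the covariate (p = 0.00081). Npr1, the receptor for atrial natriuretic peptide, had a median of 1.95 FPKM (1.78 to 4.28) against 1.65 FPKM (1.04 to 1.90), with 7 samples of 14-14-0 above every 14-7-0 sample and a difference of 0.55 (p = 0.00145). It fell to 0.27 with the covariate (p = 0.0382). Zfp36l1, an RNA-binding protein that speeds mRNA decay, had 8 samples above every 14-7-0 sample, with a median of 8.52 FPKM (6.56 to 11.8) against 6.92 FPKM (6.01 to 7.65) and a difference of 0.34 (p = 0.000887). Dhrs3, which reduces retinal to retinol, also had 8 such samples and differed by 0.42 (p = 0.00161). Hes1, the Notch-induced repressor that keeps neural progenitors undifferentiated, differed by 0.51 (p = 0.00215), the alkaline phosphatase gene Alpl by 0.72 (p = 0.00202) and the receptor phosphatase gene Ptprg by 0.18 (p = 0.00252). With the covariate the differences of these 5 genes were 0.18, 0.19, 0.41, 0.28 and 0.16 in the order given, with p from 0.0180 to 0.0461.

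**Figure D3:**
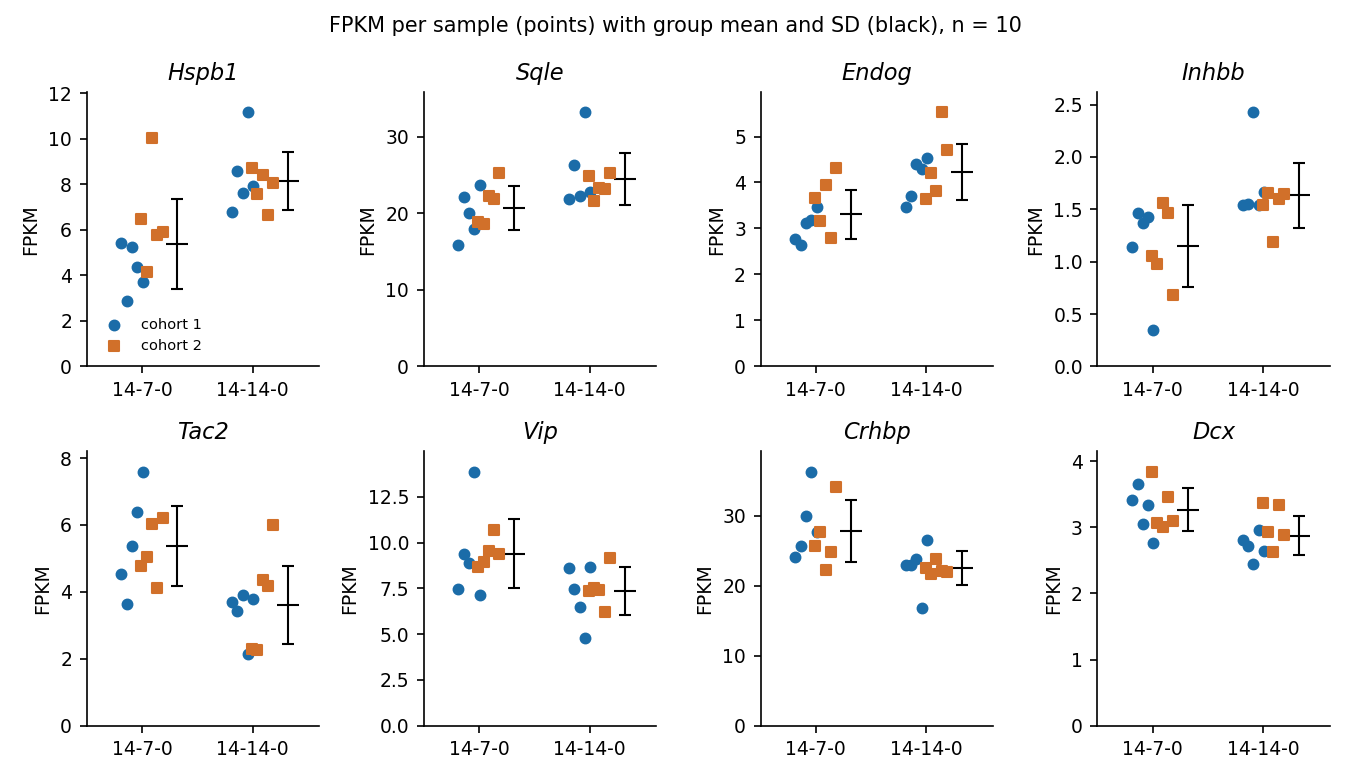
FPKM of 8 genes in each 14-7-0 and 14-14-0 sample, with circles for cohort 1 and squares for cohort 2; the black line and bar give the group mean and SD (n = 10). For Hspb1 and Sqle every 14-14-0 sample lies above the 14-7-0 median of 5.34 and 21 FPKM, and for Crhbp every one lies below the 14-7-0 median of 26.7 FPKM.

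Several cholesterol synthesis genes were higher after the second week of rest. Of 23 genes tested, 6 were called higher and 0 lower, beside 3.36% called higher over all genes, and 22 of the 23 differences were above 0 with a median of 0.11 (-0.01 over all genes). Those described here are Sqle, Dhcr7, Mvd, Stard4 and Nsdhl, and Pmvk was the gene below 0 (-0.02, p = 0.803). The median was 0.11 in cohort 1, 0.14 in cohort 2, 0.10 with the choroid plexus covariate and 0.11 without 14-14-0 replicate 3 and 14-7-0 replicate 4. The number of calls was less stable. It was 4 without those samples, 2 without 14-7-0 replicates 0 and 3, 2 with the covariate (Mvd among them), 3 without 14-7-0 replicate 0 or without 14-14-0 replicate 5, and 11 without 14-7-0 replicate 1. Over the samples the score of the list ranged from -0.14 to 0.10 in 14-14-0 (median -0.06) and from -0.34 to -0.02 in 14-7-0 (median -0.17), and the groups overlapped.

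Sqle, the squalene epoxidase of the first oxygenation step of sterol synthesis, had a median of 23.3 FPKM in 14-14-0 (21.6 to 33.2) and 21 FPKM in 14-7-0 (15.9 to 25.3). Every 14-14-0 sample was above the 14-7-0 median, with 2 above the whole group (difference 0.24, p = 0.00855), while with the covariate its p was 0.0877. Mvd, a decarboxylase of the mevalonate pathway, had a median of 8.97 FPKM (6.62 to 11.4) against 7.43 FPKM (6.36 to 10.7), a difference of 0.22 (p = 0.0292). It was 0.27 without 14-7-0 replicate 4 (p = 0.0036), which held the highest Mvd value of its group, and its call was lost without 14-7-0 replicate 0 or 3 or 14-14-0 replicate 5, 6 or 8. Dhcr7, which makes the last reduction to cholesterol, differed by 0.19 (p = 0.0229), with 0.34 in cohort 1 and 0.04 in cohort 2. Stard4, a sterol carrier protein (0.22, p = 0.0294), and Nsdhl, a sterol dehydrogenase (0.18, p = 0.0433), had p of 0.104 and 0.0954 without 14-14-0 replicate 3 and 14-7-0 replicate 4. Without 14-7-0 replicates 0 and 3 the p of Dhcr7, Mvd, Stard4 and Nsdhl were 0.0885, 0.114, 0.0985 and 0.141.

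**Figure D4:**
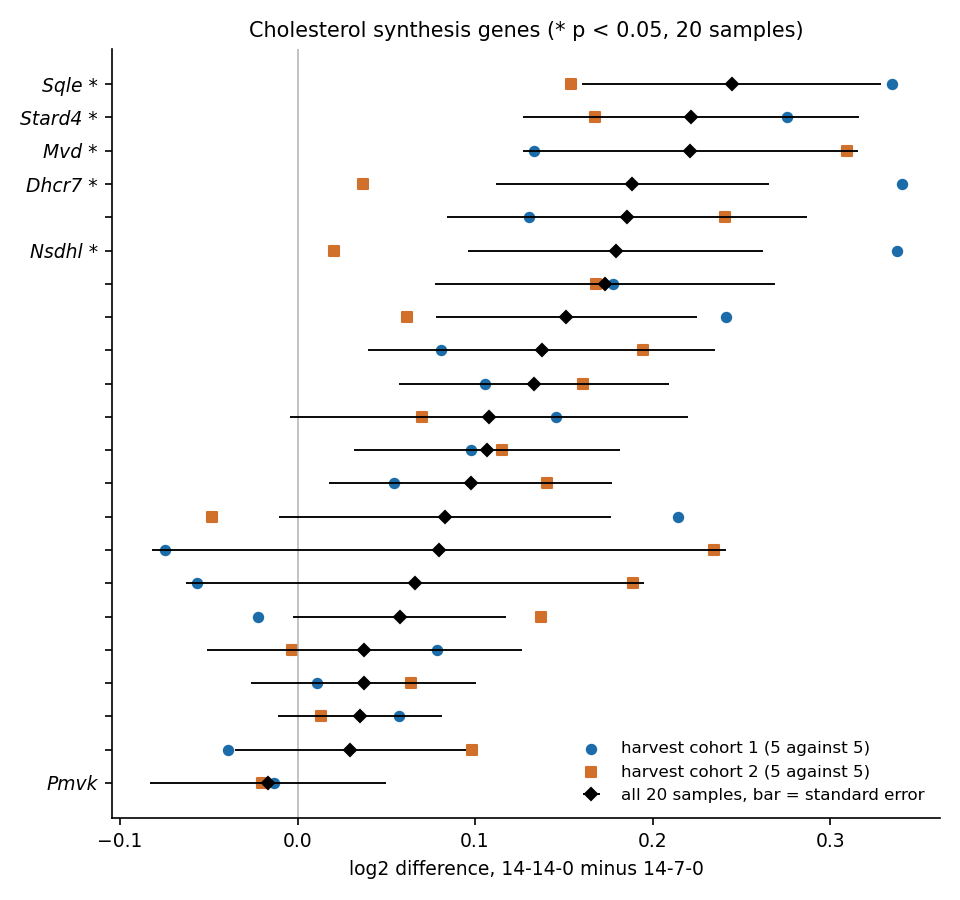
Log2 difference (14-14-0 minus 14-7-0) of 22 of the 23 cholesterol synthesis genes, with those named in the text labelled; diamonds are the 20 samples with the standard error, circles cohort 1, squares cohort 2, and asterisks mark an unadjusted p under 0.05. The diamonds lie above 0 except that of Pmvk at -0.02, and of those drawn Sqle is the farthest from 0 at 0.24.

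Set against sedentary mice, which had never run, 3 of these 5 genes (Sqle, Mvd and Dhcr7) were called lower after 7 days of rest. After 14 days, 0 of the 5 were called lower at an unadjusted limma p under 0.05. The share of all genes called against sedentary mice is not given here. Whether these counts differ from that share was therefore not tested. The genes were taken as higher in 14-14-0 than in 14-7-0, so that a lower value in 14-7-0 against another group follows in part from the choice. Both values below are against the same sedentary samples and so are not independent. Sqle differed from sedentary by -0.23 (p = 0.00997) in 14-7-0 and 0.01 (p = 0.857) in 14-14-0, Mvd by -0.27 (p = 0.0133) and -0.05 (p = 0.603), and Dhcr7 by -0.21 (p = 0.0404) and -0.02 (p = 0.799). Stard4 differed by -0.26 (p = 0.0518) and -0.04 (p = 0.756), and Nsdhl by -0.04 (p = 0.605) and 0.14 (p = 0.09). Without sedentary replicate 6 the values of Sqle, Mvd and Dhcr7 were -0.23, -0.29 and -0.18 in 14-7-0 and 0.01, -0.07 and 0.01 in 14-14-0, and the p of Dhcr7 in 14-7-0 was 0.0752. Stard4 was then called lower in 14-7-0 (-0.30, p = 0.0260) and differed by -0.08 in 14-14-0 (p = 0.508), and Nsdhl differed by -0.05 and 0.13.

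Chaperones of the endoplasmic reticulum, which fold secreted and membrane proteins, were mostly above 0. Of 16 tested, 3 were called higher and 15 were above 0, beside 3.36% and 5933 of 12994 over all genes. Their median difference was 0.15, and 0.04 with the covariate, when 0 were called at an unadjusted limma p under 0.05. In cohort 2, 0 were called at that threshold and the median was 0.06. Without 14-14-0 replicate 3 and 14-7-0 replicate 4, 1 was called and the median was 0.11. Pdia4, a protein disulfide isomerase, had a median of 21.2 FPKM in 14-14-0 (14.1 to 31.5) and 15.8 FPKM in 14-7-0 (12.1 to 19.1), and 6 samples exceeded every 14-7-0 sample. Its difference was 0.34 (p = 0.0105), and 0.09 with the covariate (p = 0.299). Dnajb11 (0.23, p = 0.0149) and the secreted Manf (0.26, p = 0.0340) were the others called. The number called was 5 without 14-7-0 replicate 9, 6 without 14-14-0 replicate 6 and 8 without 14-14-0 replicate 2 or replicate 8, and 14-14-0 replicate 3 had the highest score of its group (0.49 against -0.27 to 0.27).

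**Figure D5:**
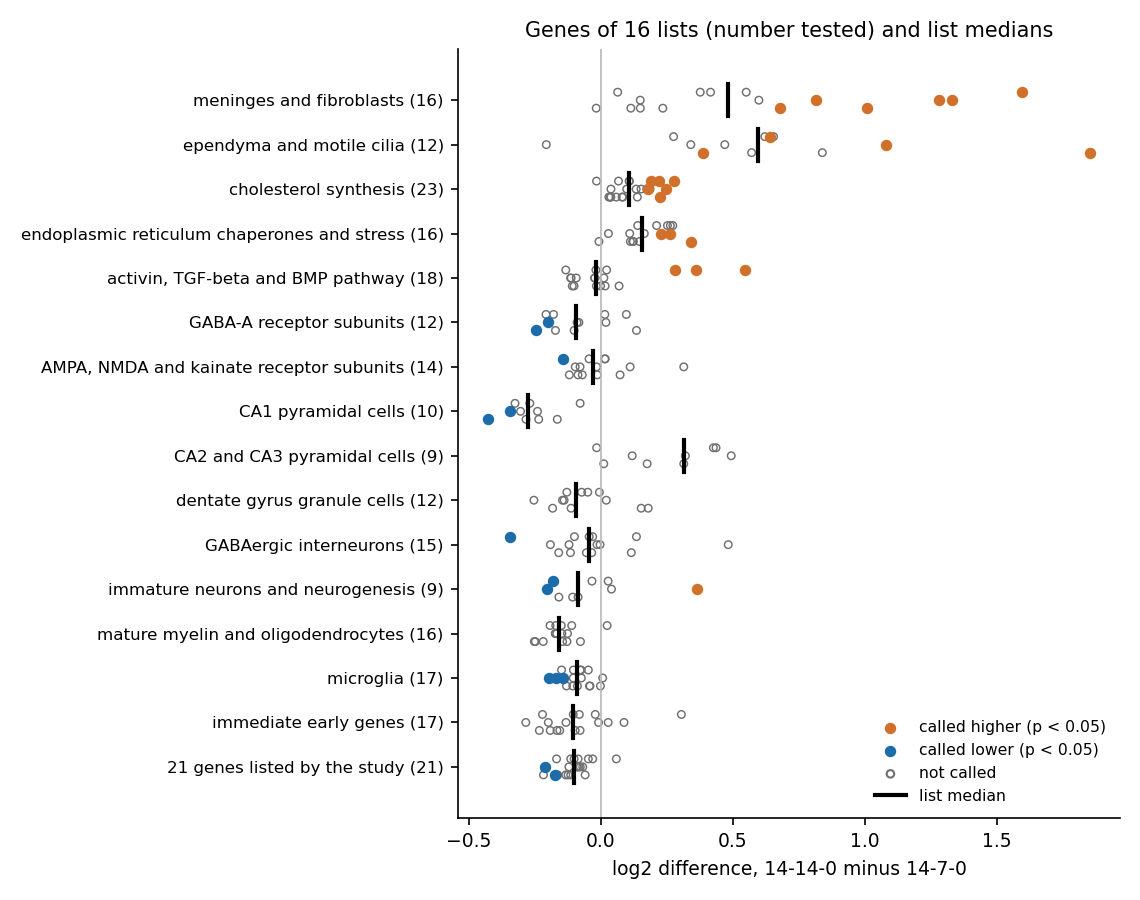
Log2 difference (14-14-0 minus 14-7-0) of each tested gene in 16 lists, with the number tested in parentheses; filled orange and blue circles are genes called higher and lower, open circles genes not called, and black bars list medians. The medians of the cholesterol and chaperone lists lie at 0.11 and 0.15, that of the CA1 list at -0.28 and that of the activin, TGF-beta and BMP list at -0.02.

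Of the activin, TGF-beta and BMP pathway, in which ligands bind paired receptor kinases that act through Smad proteins, 18 genes were tested, 3 were called higher and 0 lower, beside 3.36% and 3.09% over all genes, with a list median of -0.02. The ligand gene Inhbb (chr1:119415463-119422248), which encodes the beta-B subunit of activins and inhibins, measured 1.19 to 2.43 FPKM in 14-14-0 with a median of 1.57. In 14-7-0 it measured 0.351 to 1.56 FPKM with a median of 1.25. Of the 14-14-0 samples 9 were above the 14-7-0 median and 5 were above the whole group (difference 0.55, SE 0.193, p = 0.0103). The lowest 14-7-0 value was that of replicate 4, without which the difference was 0.39 (p = 0.00813), and with the covariate it was 0.56 (p = 0.0225). Against sedentary mice Inhbb differed by -0.63 in 14-7-0 (p = 0.0065) and by -0.08 in 14-14-0 (p = 0.538). Without sedentary replicate 6 it differed by -0.60 and -0.06. Inhbb was taken as higher in 14-14-0 than in 14-7-0, so its lower value in 14-7-0 follows in part from the choice. Both values share the sedentary samples, and that of 14-7-0 includes replicate 4. The ligand gene Tgfb2 differed by 0.36 (p = 0.0142) and the receptor gene Tgfbr2 by 0.28 (p = 0.0368), and with the covariate by 0.18 (p = 0.198) and 0.04 (p = 0.684). Acvr1c (chr2:58267453-58357896), the type 1 receptor kinase to which the study is devoted, did not pass the test. It measured 2.09 to 4.59 FPKM in 14-14-0 with a median of 3.64 and 2.88 to 6.02 FPKM in 14-7-0 with a median of 3.65, and the groups overlapped over most of their range (difference -0.13, SE 0.139, p = 0.348).

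Single genes of peptides, receptors and signalling were called lower after the second week of rest. Those described here were named by the smallest p or as list members. Tac2, Vip, Crhbp, Chrna5 and Pik3r1 also belong to the set defined by the rule above. Their call with the covariate and their shared direction in both cohorts are therefore fixed by that rule. Tac2 (chr10:127724478-127731768), the precursor of neurokinin B, measured 2.14 to 6.0 FPKM in 14-14-0 with a median of 3.74, and 3.64 to 7.6 FPKM in 14-7-0 with a median of 5.2. Of the 14-14-0 samples 9 were below the 14-7-0 median and 4 were below its lowest sample. The difference was -0.60 (SE 0.171, p = 0.00223), with -0.66 in cohort 1 and -0.53 in cohort 2. Against sedentary mice Tac2 differed by 0.33 in 14-7-0 (p = 0.0776) and by -0.27 in 14-14-0 (p = 0.208). Without sedentary replicate 6 it differed by 0.43 (p = 0.0122) and -0.16 (p = 0.397). Tac2 was taken as lower in 14-14-0 than in 14-7-0, so these values follow in part from the choice and share the sedentary samples. Vip (chr10:5639193-5647617), the vasoactive intestinal peptide of disinhibitory interneurons, had a median of 7.43 FPKM in 14-14-0 (4.80 to 9.15) and 9.15 FPKM in 14-7-0 (7.13 to 13.9). The difference was -0.34 (p = 0.00721), with -0.36 in cohort 1 and -0.33 in cohort 2, and 9 samples were below the 14-7-0 median. Vip was the only gene called of 15 interneuron genes, beside 6.44% of all genes called in either direction. The pan-GABAergic genes Gad1 and Gad2 were not among the calls.

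Crhbp (chr13:95431376-95444831), which binds and sequesters corticotropin-releasing hormone, had a median of 22.7 FPKM in 14-14-0 (16.8 to 26.6) and 26.7 FPKM in 14-7-0 (22.3 to 36.3). Every 14-14-0 sample was below the 14-7-0 median and 4 were below its lowest sample. The difference was -0.30 (SE 0.0848, p = 0.00219), with -0.35 in cohort 1 and -0.25 in cohort 2. The lowest sample was 14-14-0 replicate 3, and without it and 14-7-0 replicate 4 the difference was -0.25 (p = 0.00587). Chrna5 (chr9:54980827-55011420), a subunit of the nicotinic acetylcholine receptor, had a median of 2.67 FPKM (1.99 to 3.31) against 3.44 FPKM (2.69 to 5.71). Every 14-14-0 sample was below the 14-7-0 median and 6 were below the whole group, with a difference of -0.44 (SE 0.117, p = 0.00127) that was -0.71 in cohort 1 and -0.16 in cohort 2.

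Pik3r1 (chr13:101680761-101768217) encodes the regulatory subunit of phosphoinositide 3-kinase, through which insulin and growth factor receptors signal. It measured 16.1 to 19.1 FPKM in 14-14-0 and 18.1 to 21 FPKM in 14-7-0, with medians of 17.6 and 19.3. All but 2 of the 14-14-0 samples lay below the lowest 14-7-0 sample, and the difference of -0.14 (SE 0.041, p = 0.00246) was -0.14 in each cohort and -0.15 with the covariate (p = 0.00516). Against sedentary mice it differed by 0.21 in 14-7-0 (p = 0.00813) and by 0.07 in 14-14-0 (p = 0.351). Without sedentary replicate 6 it differed by 0.22 (p = 0.00663) and 0.08 (p = 0.281). Pik3r1 too was taken as lower in 14-14-0 than in 14-7-0, so these values follow in part from the choice and share the sedentary samples. Fam107a, an actin-bundling protein induced by glucocorticoids, had a median of 123 FPKM in 14-14-0 (104 to 148) and 140 FPKM in 14-7-0 (127 to 160), with 7 samples below every 14-7-0 sample (difference -0.20, p = 0.0029). Tceal5 had the smallest p of the genes called lower, at 51.2 FPKM (43.3 to 57.5) against 59.4 FPKM (53.0 to 66.8), with 6 samples below every 14-7-0 sample (difference -0.20, SE 0.0539, p = 0.00114). For the non-coding RNA Jpx the difference was -0.31 (p = 0.00132).

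Genes of newborn neurons were split. Of 9 tested neurogenesis genes, 2 were called lower and 1 higher, beside 3.09% and 3.36% over all genes. Dcx, the microtubule-binding protein of migrating newborn neurons, had a median of 2.85 FPKM in 14-14-0 (2.44 to 3.36) and 3.22 FPKM in 14-7-0 (2.76 to 3.84), with 8 samples below the 14-7-0 median and 4 below the whole group (difference -0.18, SE 0.0698, p = 0.0179). With the covariate it was also -0.18 (p = 0.0424). Sox11, a transcription factor of the same stage, had all 10 samples below the 14-7-0 median (2.31 against 2.71 FPKM at the medians, difference -0.20, p = 0.0271). Its call was lost without 14-7-0 replicate 5 or 14-14-0 replicate 0, 1 or 3 (p = 0.0545 without the last), and its p was 0.207 with the covariate. Ccnd2, the cyclin of dividing progenitors, differed by 0.37 in the other direction (p = 0.00393), and by 0.26 with the covariate (p = 0.051). Its lowest values in 14-7-0 were those of replicates 3 and 0 (8.31 and 10.1 FPKM), the others measured 12.4 to 16.2 FPKM and 14-14-0 measured 15.2 to 23.2 FPKM. Without these samples the difference was 0.23 (p = 0.0106).

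The genes transcribed after learning mostly missed the test. Of 17 immediate early genes, 0 were called at an unadjusted limma p under 0.05, with a list median of -0.11. Fos measured 2.46 to 5.18 FPKM in 14-14-0 (median 3.69) and 2.80 to 5.95 FPKM in 14-7-0 (median 4.10), a difference of -0.17 (p = 0.286). It was lower than in sedentary mice in both groups, by -0.91 in 14-14-0 (p = 0.00263) and -0.74 in 14-7-0 (p = 0.0109), and by -0.85 and -0.69 without sedentary replicate 6. Arc differed between the rest groups by -0.16 (p = 0.286). Of 12 late activity-induced genes, 2 were called lower, beside 3.09% over all genes. They were the secretogranin gene Scg2 (-0.16, p = 0.0277) and the sorting receptor gene Sorcs3 (-0.16, p = 0.0238). The call of Scg2 was lost without 14-7-0 replicate 3 or 9 or 14-14-0 replicate 1 or 3, and that of Sorcs3 without 14-7-0 replicate 3. Their p without 14-14-0 replicate 3 and 14-7-0 replicate 4 was 0.0206 and 0.0611, and without 14-7-0 replicates 0 and 3 it was 0.0812 and 0.112. Bdnf, the neurotrophin most tied to exercise, had a median of 18.2 FPKM in 14-14-0 (12.4 to 20.1) and 19.9 FPKM in 14-7-0 (16.3 to 25.6), a difference of -0.17 (SE 0.0861, p = 0.0648), which was -0.35 in cohort 1 and 0.01 in cohort 2. It was called lower without 14-7-0 replicate 3, 6 or 7 or without 14-14-0 replicate 6. None of 12 neurotrophic and exercise-linked factors was called at an unadjusted limma p under 0.05.

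Among stress and clock genes, single members passed. Ddit4, an inhibitor of mTOR signalling that glucocorticoids induce, had a median of 26.3 FPKM in 14-14-0 (18.1 to 32.3) and 33.4 FPKM in 14-7-0 (26.7 to 43.4). All 10 samples were below the 14-7-0 median and 5 below the whole group (difference -0.36, SE 0.107, p = 0.00308), and with the covariate the p was 0.0562. It was the only gene called of 12 glucocorticoid-responsive genes, beside 6.44% of all genes called in either direction, and the list median was -0.13. The number of these genes called was 3 without 14-7-0 replicate 9 and 3 without 14-7-0 replicates 0 and 3 together. It was 2 without 14-7-0 replicate 3 or 4 or 14-14-0 replicate 2, 7 or 8. Arntl, the clock activator BMAL1, had a median of 11.9 FPKM (10.4 to 13) against 13.2 FPKM (11.5 to 16.6), with all 10 samples below the 14-7-0 median (difference -0.19, p = 0.00437). It was -0.31 in cohort 1 and -0.07 in cohort 2. Of the 11 clock genes that peak in the evening, 0 were called at an unadjusted limma p under 0.05, and tissue was collected within a 4-h window.

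Several lists of regional and glial markers shifted slightly, and their calls stand beside 3.09% called lower and 3.36% called higher over all genes. All 10 CA1 pyramidal cell genes were below 0 with a median of -0.28, and 2 were called lower, among them Wfs1 (medians 54.3 and 74.9 FPKM, difference -0.43, p = 0.0216). In cohort 1 the CA1 median was -0.55 with 7 called lower, beside 527 of all 12994 genes in that cohort. The CA1 median was -0.01 in cohort 2 and -0.10 with the choroid plexus covariate. It was -0.17 without 14-14-0 replicate 3, and also -0.17 without 14-7-0 replicates 0 and 3, when 0 were called at an unadjusted limma p under 0.05. The 9 CA2 and CA3 genes had a median of 0.31 with 0 called at the same threshold. That median was 0.59 in cohort 1 and -0.04 in cohort 2, 0.12 with the covariate and 0.19 without 14-14-0 replicate 3 and 14-7-0 replicate 4. Without 14-7-0 replicates 0 and 3, whose scores were low, it was 0.04. Of 12 GABA-A receptor subunits, 2 were called lower, with a list median of -0.10. Of 14 AMPA, NMDA and kainate receptor subunits, Gria3 was called lower (-0.15, p = 0.0237). The number of CA1 genes called was 4 without 14-7-0 replicate 9 or without 14-14-0 replicate 4, and 1 without 14-7-0 replicate 0, 2, 3 or 6 or without 14-14-0 replicate 2 or 3. That of GABA-A subunits called was 4 without 14-7-0 replicate 9, 1 in 11 other omissions and 0 without 14-7-0 replicates 0 and 3 together. The sample 14-14-0 replicate 3 was the lowest of its group in CA1 score.

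Of 17 microglia genes, 16 were below 0 and 3 were called lower, beside 3.09% called lower over all genes, with a list median of -0.09. The median was -0.21 in cohort 1, with 1 called, and 0.00 in cohort 2, with 0 called at an unadjusted limma p under 0.05. It was -0.04 with the covariate and -0.08 without 14-7-0 replicates 0 and 3, with 1 called in each case. The lysosomal gene Cd68 had a median of 5.84 FPKM in 14-14-0 (5.09 to 7.01) and 6.65 FPKM in 14-7-0 (5.62 to 8.49), a difference of -0.20 (p = 0.0129) that was -0.24 with the covariate (p = 0.00998). The fractalkine receptor gene Cx3cr1 (-0.14, p = 0.0132) and the lectin gene Siglech (-0.17, p = 0.0291) were the others. Of 16 mature myelin genes, 15 were below 0 with a median of -0.16 and 0 called at an unadjusted limma p under 0.05. Without 14-14-0 replicate 3, which had the highest myelin score of its group (0.83 against -0.60 to 0.29), 6 myelin genes were called lower. That stands beside 323 of all 12994 genes in the same fit. With 14-7-0 replicate 4 also left out, 3 myelin genes were called lower, beside 395 of all genes. The part of myelin content in the differences of other genes was not tested.

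The 21 genes that the study listed from its comparisons with sedentary mice were not chosen on this contrast, but they were chosen on samples that include these 20 and are no independent evidence. Of the 21, 20 were below 0 with a median of -0.10, beside 7061 of 12994 genes tested. Fam49a (-0.18, p = 0.0302) and Necab3 (-0.21, p = 0.0405) were called lower, beside 3.09% over all genes. Without 14-14-0 replicate 3 the median was -0.05 and 0 were called at an unadjusted limma p under 0.05. The number called was 4 without 14-7-0 replicate 7, 5 without 14-14-0 replicate 6 and 1 in 7 other omissions, and the median was -0.03 with the choroid plexus covariate.

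Whether the difference between the rest groups itself differed between collection days was tested as an interaction. It was past an unadjusted p under 0.05 in 591 genes (4.55%), fewer than the 649.7 that chance would give, and the smallest adjusted p by limma was 0.882. Taken alone, cohort 1 (5 against 5) called 577 genes higher and 527 lower, and cohort 2 called 57 higher and 109 lower. In the same direction 14 genes were called in both, and in opposite directions 4. The median choroid plexus score in cohort 1 was 2.91 in 14-14-0 and -1.30 in 14-7-0, and in cohort 2 it was -1.0 and -0.42.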

How the data were processed

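The series holds RNA-seq of dorsal hippocampus from 70 samples in 7 groups. By the paper's methods, poly(A)-selected libraries were sequenced (50 bp, single-end) and aligned by ELAND v2e and by Bowtie. Unique alignments of at most 2 mismatches went through the Tuxedo protocol. The submitters' processing notes name Bowtie, Cuffnorm and mm10. The authors deposited FPKM values, normalised by gene length and library, with no read counts in the files used here. No counting interval is therefore given, and total reads of the sequencing libraries, which the study lists, were not used here. Relative depth estimated from the FPKM of low genes was 0.454 to 1.007 of sedentary replicate 0 in 19 of the 20 samples and 0.0257 in 14-7-0 replicate 4. Genes that share a transcript, and paralogs, may be split uncertainly by the authors' counting.

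Groups were taken from the exercise labels. Genes whose mean over the 70 samples reached 1 FPKM were tested as log2(FPKM + 0.1), which understates changes of low genes, with limma 3.58.1 (R 4.3.3, two-sided, intensity trend, no covariate) and Benjamini-Hochberg adjustment over 12994 genes. The harvest cohort was balanced between the groups. On simulated data with 200 changed genes, 132, 179 and 195 of 200 were called at log2 changes of 0.25, 0.5 and 1, and 37, 143 and 186 after adjustment. Unchanged genes called numbered 648 at each size, and 0, 11 and 17 after adjustment. The simulated noise was independent between genes, without the choroid plexus variation that genes share here, so these shares do not carry over to these samples. The samples, gene lists and named genes were chosen with earlier results of these data known. Named genes were those of smallest p in each direction, those called with and without 14-7-0 replicate 4 and the covariates, and list members. Coordinates are from RefSeq on GRCm38. Alternatives covered pseudocount, minimum level, scaling, covariates, test, replicate block and omission of each sample. Fits without 14-14-0 replicate 3 and 14-7-0 replicate 4 together, fits without 14-7-0 replicates 0 and 3 together, list medians with the covariate, and fits without sedentary replicate 6 were chosen after seeing the data. Results of some genes on these lists are not reported here.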

Additional observations from a re-analysis of the deposited data

Results flagged for a closer look

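Within a group of 10, a sample was singled out where its gap to the nearest other sample exceeded, as a share of the group's range, Dixon's 95% critical value. Among 184 groups of values 21 met this, and chance gives about 1 in 20. Values are log2(FPKM + 0.1) or list scores, with the nearest other sample of the group after each.

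The sample 14-14-0 replicate 3 accounted for 10 of them. It was highest in Hspb1 (3.49, next 3.14), Sqle (5.06, next 4.72) and Gdf1 (1.38, next 0.25). It was lowest in Acvr1c (1.13, next 1.71), Crhbp (4.08, next 4.45), Bdnf (3.64, next 4.04) and Fam49a (5.58, next 5.96). Its dentate granule cell score was -0.95 (next -0.27), its CA1 score -0.76 (next -0.14) and the score of the 21 genes listed by the study -0.52 (next -0.19).

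The sample 14-14-0 replicate 1 had the lowest scores of microglia (-0.20, next -0.03), interneurons (-0.40, next -0.06) and ribosomal proteins (-0.28, next -0.08). This sample also had the highest choroid plexus score, 4.43. In 14-14-0 replicate 2 Inhbb was highest (1.34, next 0.82), and in 14-14-0 replicate 6 Snora17 was the one value above 0 FPKM (4.44, next -3.32).

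In 14-7-0 replicate 4, Mia, of the ependymal list, was listed at 0 FPKM (-3.32, next 0.43) and Mvd was highest (3.44, next 3.08). In 14-7-0 replicate 7, which had the highest choroid plexus score of its group, Enpp2 was highest (8.21, next 7.08). In 14-7-0 replicate 9 Dhcr7 was highest (4.19, next 3.86), and the scores of neurotrophic factors (-0.16, next -0.04) and of AMPA, NMDA and kainate receptor subunits (-0.51, next -0.10) were lowest.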

How the results depend on the processing

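No gene had an adjusted p under 0.05 under any of the alternatives run, limma or Cyber-T, beside 837 genes at an unadjusted p under 0.05, and the smallest adjusted p with 1 sample left out was 0.19. Genes called higher numbered 436, and 731 with a minimum of 0.1 FPKM, 183 with 5 FPKM, 924 with no filter and 62 at a threshold of 0.01. They numbered 57 in cohort 2 alone, 47 with the choroid plexus covariate, 88 with it and without 14-7-0 replicate 4, and 264 without 14-14-0 replicate 3 and 14-7-0 replicate 4. Genes called lower numbered 401, and 64 at 0.01, 109 in cohort 2, 95 and 168 under the same covariate settings, 173 by Cyber-T on FPKM, 168 by Cyber-T on log2 values and 240 without 14-7-0 replicates 0 and 3. Leaving out 1 sample gave 271 to 582 higher and 267 to 546 lower genes. Of all calls 52.1% were higher, and 64.2% after median-ratio scaling, 67.2% with no filter, 33.1% with the covariate, 34.3% in cohort 2 and 40.1% without both samples; the cause was not tested.

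The labels give both groups the same replicate numbers. Deviations of same-numbered samples correlated at -0.098 to 0.396 (median 0.083), beside a median of -0.051 for other numbers of the same cohort. Of 10 pairs 4 were above 0.1, and 1 of 10 samples correlated best with its own number. The labels name no pairing, and the main fit treated the samples as unpaired. With a replicate block 576 genes were higher and 480 lower.

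With the covariate, with and without 14-7-0 replicate 4, these differences changed sign: Ttr (-0.39 and -0.31), Kcnj13 (-0.12 and -0.21), Enpp2 (-0.11 and -0.06), Fos (0.04 and 0.06) and Arc (0.02 and 0.04). Ttr, Kcnj13 and Enpp2 belong to the list whose mean is the covariate, so the loss of their difference follows from the fit. In cohort 2 Sorcs3 and Bdnf were 0.01. Pmvk, near 0, was 0.00 with the covariate and without 14-7-0 replicate 4, 0.03 with sample weights, 0.02 without both samples and -0.05 to 0.02 as single samples were left out. Of the genes named as called, 15 lost the call in at least 1 omission of a sample, in up to 12 of the 20 for Nsdhl, 11 for Gdf1 and 10 for Ttr. Beside the genes given above, Ttr, Enpp2, Tgfb2, Manf, Gria3 and Fam49a lost it without 14-7-0 replicates 0 and 3. No cause was tested. Depth estimated from low genes was lowest in 14-7-0 replicate 4, and low genes are the least certain.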

Other observations

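Some called genes were short or overlapping transcripts, named here after their values were seen. Snora3, a small nucleolar RNA, was listed at 0 FPKM in all 10 of the 14-7-0 samples and in 5 of 10 14-14-0 samples, and at 48.0 to 78.1 FPKM in the other 5. Snora17 was listed at 0 in 9 of 10 14-14-0 samples and at 20.3 to 57.0 FPKM in 6 of 10 14-7-0 samples. RNAs of this length lack a poly(A) tail, and the libraries were poly(A)-selected. Gdf1, which shares a transcript with Cers1, measured 17.1 to 21.9 FPKM in 14-7-0 replicates 0, 4 and 7 and 0.62 to 1.42 FPKM in the other 7 samples, so its called difference of -1.39 rested on 3 samples (p = 0.0444, limma). Without 14-7-0 replicates 0 and 3 it was -1.20 (p = 0.0625).

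Calls among energy and protein synthesis genes are given beside 3.36% called higher and 3.09% called lower over all genes tested. Of 45 complex I genes 0 were called higher and 2 lower, with a median of 0.01, and of 41 genes of complexes III, IV and V 1 was called higher and 0 lower, with a median of 0.02. Of 80 cytosolic ribosomal protein genes 3 were called lower and 65 were below 0, with a median of -0.07. That number called ran from 0 to 8 as single samples were left out, 8 without 14-7-0 replicate 6 and 0 without 14-7-0 replicate 0 or 1 or without 14-14-0 replicate 1 or 5, and 0 without 14-7-0 replicates 0 and 3 together. Of 16 Polycomb and histone deacetylase genes 0 were called at an unadjusted limma p under 0.05, with a median of -0.01.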
